A study of Homo sapiens with 10 samples.

Results

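The 8 miRNAs described here are known chiefly from blood cells: hsa-miR-142-3p, hsa-miR-142-5p, hsa-miR-150, hsa-miR-223, hsa-miR-155, hsa-miR-451, hsa-miR-144 and hsa-miR-146a (the species prefix is left out where a name recurs). They were chosen by name, as the assays with these names and without the star that marks the minor strand of a hairpin, and all 8 were found among the 745 miRNA assays (742 miRNAs) of the study. The assays were read in 5 purifications. In HepG2, a human liver tumour line, material was recovered with a probe against the p21 mRNA, a probe against the STAT3 mRNA or a control probe; in PC-3, derived from a prostate cancer metastasis, it was recovered with a p21 or a control probe. p21 is a cyclin-dependent kinase inhibitor and STAT3 a cytokine-activated transcription factor. The lines were grown in medium with 10% FBS, the probe was in the cells for 24 hours, and the RNA held on streptavidin beads was measured by SYBR Green RT-PCR on 2 panels of different assays (10 samples). All 8 miRNAs sit on panel 1, which holds 375 miRNA assays, in 1 well each. Each condition was purified 1 time, so differences between conditions could not be tested and carry no p-value.

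MicroRNAs guide Argonaute proteins to messenger RNAs mainly by pairing of their seed, bases 2 to 8 from the 5′ end. The hairpin of miR-142 gives a mature miRNA from each arm, and both are abundant in almost all white blood cells. miR-223 belongs to neutrophils, monocytes and platelets, and miR-150 to mature lymphocytes, where it represses the transcription factor MYB. miR-155, processed from the BIC transcript, and miR-146a, which restrains Toll-like receptor signalling through TRAF6 and IRAK1, are induced when immune cells are activated. miR-144 and miR-451 come from 1 erythroid transcript, and miR-451 is matured by the slicing activity of AGO2 without Dicer. Neither cell line is of blood origin.

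Mature sequences were found for 6 of the 8 in the RefSeq miRNA table (GRCh38.p14); miR-150 and miR-451 are named only. They are printed 5′ to 3′ with the seed in capitals, to show that no pair of the 6 shares a seed.
miR-142-3p: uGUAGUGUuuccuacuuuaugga
miR-142-5p: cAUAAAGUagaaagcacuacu
miR-223 (RefSeq miR-223-3p): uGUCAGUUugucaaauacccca
miR-155 (RefSeq miR-155-5p): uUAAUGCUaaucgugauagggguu
miR-144 (RefSeq miR-144-3p): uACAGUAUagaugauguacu
miR-146a (RefSeq miR-146a-5p): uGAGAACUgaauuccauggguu

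MIR142 lies at chr17:58331232-58331318 on the minus strand, inside the non-coding gene MIR142HG, and MIR223 at chrX:66018870-66018979 on the plus strand, inside MIR223HG. MIR144 (chr17:28861533-28861618) and MIR451A (chr17:28861369-28861440) are 92 bases apart, MIR155 (chr21:25573980-25574044) lies in MIR155HG, MIR146A (chr5:160485352-160485450) in MIR3142HG, and MIR150 is at chr19:49500785-49500868. Both arms of the first 2 hairpins had assays, as had those of MIR155, MIR144 and MIR146A. miR-142-3p and miR-223 were detected in more HepG2 purifications than the other arms of their hairpins. Assays can differ in efficiency, so this is a description only. The first 2 hairpins are shown with their mature arms in capitals, the 5′ arm first.
MIR142: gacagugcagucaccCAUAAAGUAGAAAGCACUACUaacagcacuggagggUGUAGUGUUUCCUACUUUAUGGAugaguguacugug
MIR223: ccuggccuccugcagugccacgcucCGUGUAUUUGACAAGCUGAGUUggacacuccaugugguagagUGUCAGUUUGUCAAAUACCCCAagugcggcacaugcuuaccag

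Blood-cell miRNAs were found in the HepG2 purifications with each of the 3 probes, the control included, and in neither PC-3 purification. A Cq is the PCR cycle at which the signal crosses threshold, lower for more RNA, and a Cq of at most 35 was counted as detected. Of the 8, 3 were detected with the p21 probe (miR-150, miR-223 and miR-451), 3 with the STAT3 probe (miR-142-3p, miR-223 and miR-451) and 4 with the control probe (miR-142-3p, miR-150, miR-223 and miR-451). All panel 1 assays together were detected at 34.1% (128 of 375), 37.1% (139) and 28.8% (108) in the same order. The members' count lay close to the panel's share with p21 and STAT3 and above it with the control probe, in a set too small to read an order from. In PC-3 the count was 0 of 8 with the p21 probe and 0 of 8 with the control probe, where 10.1% (38 of 375) and 2.13% (8) of the panel were detected.

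hsa-miR-223 had the lowest Cq of the set in every HepG2 purification, although assays can differ in efficiency and Cq values of different assays are compared only as a description. With the STAT3 probe it led miR-142-3p by only 0.08 cycles, below the SD of a Cq of 0.634. hsa-miR-223 gave Cq 32.77 with the p21 probe, 32.74 with the STAT3 probe and 31.53 with the control probe, and no Cq in PC-3 with either probe. The control purification thus held the most miR-223 on the scale of raw Cq, while the p21 and STAT3 values differed by 0.03 cycles. In the control purification miR-223 stood 19th of the 108 panel 1 assays detected, ordered from the lowest Cq; with the p21 probe it stood 73rd of 128 and with the STAT3 probe 54th of 139.

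hsa-miR-451, the red-cell miRNA, gave Cq 33.44 with the p21 probe, 34.07 with the STAT3 probe and 32.84 with the control probe in HepG2, and in PC-3 38.07 with the p21 probe and no Cq with the control probe. Its order over HepG2 was control, p21, STAT3, and neighbouring values lay 0.61 and 0.63 cycles apart, each below the SD of 0.69 that reference assays present on both panels gave for a difference between purifications (17 pairs, technical error only). miR-144, from the same transcript, was not detected in any purification. Its late signals were Cq 36.92 with the STAT3 probe and 38.55 with the control probe in HepG2 and 37.53 with the control probe in PC-3, with none for the p21 probe in either line.

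hsa-miR-150 gave Cq 34.68 with the p21 probe, 35.19 with the STAT3 probe and 34.02 with the control probe in HepG2, the STAT3 value lying just past the limit. In PC-3 it gave late signals of Cq 37.95 with the p21 probe and 38.70 with the control probe, the only member with a Cq in all 5 purifications.

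In HepG2, miR-142-3p was detected with the STAT3 and control probes and not with the p21 probe. The same held for 10 (11.5%) of the 87 panel 1 assays detected with both the STAT3 and control probes. hsa-miR-142-3p gave Cq 37.60 with the p21 probe, 32.82 with the STAT3 probe and 33.13 with the control probe, and no Cq in PC-3. The STAT3 and control values lay 0.31 cycles apart, and the p21 value came 4.47 cycles later than the control value. The other arm of the hairpin, miR-142-5p, was not detected in any purification: it gave no Cq with the p21 probe, 37.35 with the STAT3 probe and 37.72 with the control probe in HepG2, and 37.33 with the p21 probe and none with the control probe in PC-3.

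The activation-induced miRNAs were missing. miR-155 gave no Cq in any of the 5 purifications, and miR-146a gave a single late value, Cq 36.50 with the STAT3 probe in HepG2. With any Cq counted, the set had 4 of 8 with the p21 probe, 7 of 8 with the STAT3 probe and 6 of 8 with the control probe in HepG2, where panel 1 had 62.4%, 80.0% and 52.3%. In PC-3 the counts were 3 of 8 with p21 and 2 of 8 with control, against 34.4% and 15.5% of the panel. Water wells stayed blank throughout (0 of 45 with a Cq).

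**Figure D1:**
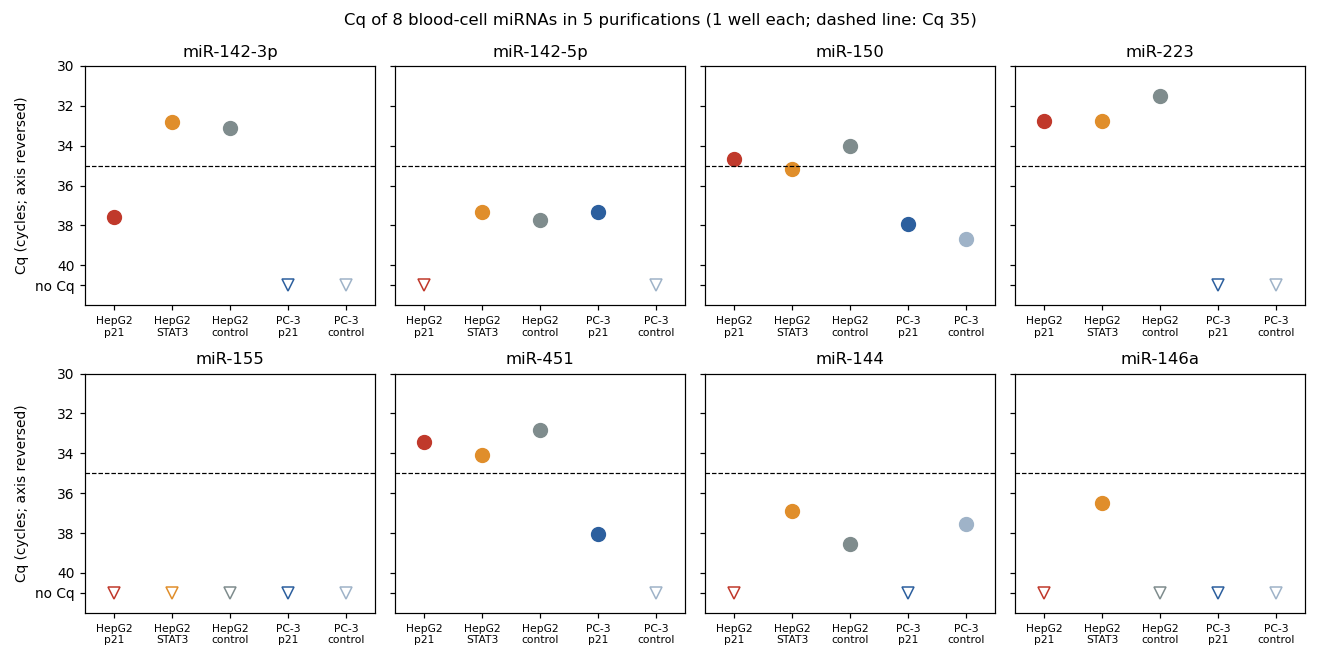
Cq (y axis, reversed so that more RNA is higher) of each of the 8 miRNAs in the 5 purifications (x axis), 1 well per point; open triangles mark wells with no Cq and the dashed line the limit of Cq 35. miR-223 and miR-451 lie above the line in all 3 HepG2 purifications, miR-142-3p drops to Cq 37.60 with the p21 probe, and no PC-3 point reaches the line.

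Against the control probe, the blood-cell miRNAs measured with both probes were lower in the p21 purification of HepG2, while most of the panel was higher. A difference is the Cq with the control probe minus that with the target probe, in log2 units and positive where the target probe held more. Without centring, miR-223 was at -1.25, miR-150 at -0.65 and miR-451 at -0.61, whereas the 87 panel 1 assays measured with both probes had a median of 1.30. Below 0 were 3 of 3 members and 28 of the 87 assays (32.2%). On this scale miR-223 alone differed by more than the technical SD of 0.69. Repeat wells of UniSp3, a synthetic template, gave a larger SD for a single Cq, 1.005 cycles pooled over 10 plates. Measured by that spread, miR-223 is not clearly set apart.

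After centring each panel on the median of its assays measured with both probes, miR-223 stood at -2.55 log2 units (0.171 times the control, relative to the panel), miR-150 at -1.96 (0.258 times) and miR-451 at -1.91 (0.267 times), each more than the technical SD below 0. All 3 were at least 2-fold lower, as were 36.9% of all assays measured with both probes (38 of 103), and their median was -1.96, against 0 for all assays. They stood 8th, 13th and 15th from the lowest of 103. The direction held with every centring tried except the UniSp3 calibrator, a synthetic template read in 3 wells per plate, with which the 3 became 1.03, 1.62 and 1.67. Those 3 UniSp3 wells ranged from Cq 21.6 to 24.9 on panel 1 with the p21 probe, all later than the 20.5 to 21.1 with the control probe.

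miR-142-3p passed the limit with the control probe and not with the p21 probe, and was at least 3.66-fold lower with p21 without centring and at least 9.01-fold lower after it. Centred on UniSp3 no bound was left. The 6 references tried were the panel median, the reference assays, the small RNAs U6, SNORD38B and SNORD49A, UniSp6, UniSp3 and no centring. Of these, UniSp6 is a spike-in and UniSp3 a calibrator. With the late Cq of 37.60 taken at face value, the difference was below 0 under each of the 6. It was lowest with the reference assays, at -8.19, and closest to 0 with UniSp3, at -2.19. On panel 1 the reference assays were themselves 3.72 log2 units higher with p21 than with the control probe. The panel median shifted by 1.30, the small RNAs by 2.44, UniSp6 by 0.24 and UniSp3 by -2.28. The -8.19 includes the shift of 3.72, so its size depends on reference assays that differed between the probes. Which centre was steady was not tested. Of the panel 1 assays detected with the control probe, 19.4% (21 of 108) were not detected with p21; among the members it was 1 of 4. Of 87 panel 1 assays detected with both the STAT3 and control probes, 10 (11.5%) were not detected with p21, and miR-142-3p had the third-largest delay among the 8 of these that still gave a Cq. The largest, 6.24 cycles, belonged to miR-101, which was chosen for mention after its values were seen. It shares the first 7 bases of miR-144 and differs from it at the last base of the seed, so it is printed beside miR-144 for comparison.
miR-144: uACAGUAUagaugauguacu
miR-101 (RefSeq miR-101-3p): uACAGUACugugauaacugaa
miR-101 gave Cq 39.12 with the p21 probe, 34.36 with the STAT3 probe and 32.88 with the control probe in HepG2. Of the 4 members not detected with the control probe, 0 were gained with p21, where 15.4% of such panel 1 assays were (41 of 267).

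The STAT3 purification of HepG2, set against the same control purification, was lower in miR-223 and miR-451 and close to it in miR-142-3p. Without centring miR-451 was at -1.24, miR-223 at -1.22 and miR-142-3p at 0.31, against a panel 1 median of 0.49 over 87 assays; 33.3% of the 87 (29) were below 0. After centring miR-451 stood at -1.73 (0.302 times) and miR-223 at -1.71 (0.306 times), beyond the technical SD, and miR-142-3p at -0.18, within it and on either side of 0 depending on the reference (-1.80 on the reference assays and 1.61 on UniSp3). At least 2-fold lower were 2 of 3 members and 25 of all 100 assays measured with both probes (25%), with medians of -1.71 and 0. With UniSp3 as the centre the 2 lower members came to 0.063 (miR-451) and 0.082 (miR-223), no longer lower. The UniSp3 wells on panel 1 with the STAT3 probe lay close together, from Cq 21.7 to 22.4, and all came later than the 20.5 to 21.1 with the control probe.

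miR-150 was detected with the control probe and not with STAT3, at least 1.97-fold lower without centring and at least 2.76-fold lower after it, with no bound left on UniSp3; 19.4% of panel 1 assays detected with the control probe (21 of 108) were lost in this comparison. None of the 4 undetected members was gained, against 19.5% of such assays (52 of 267).

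**Figure D2:**
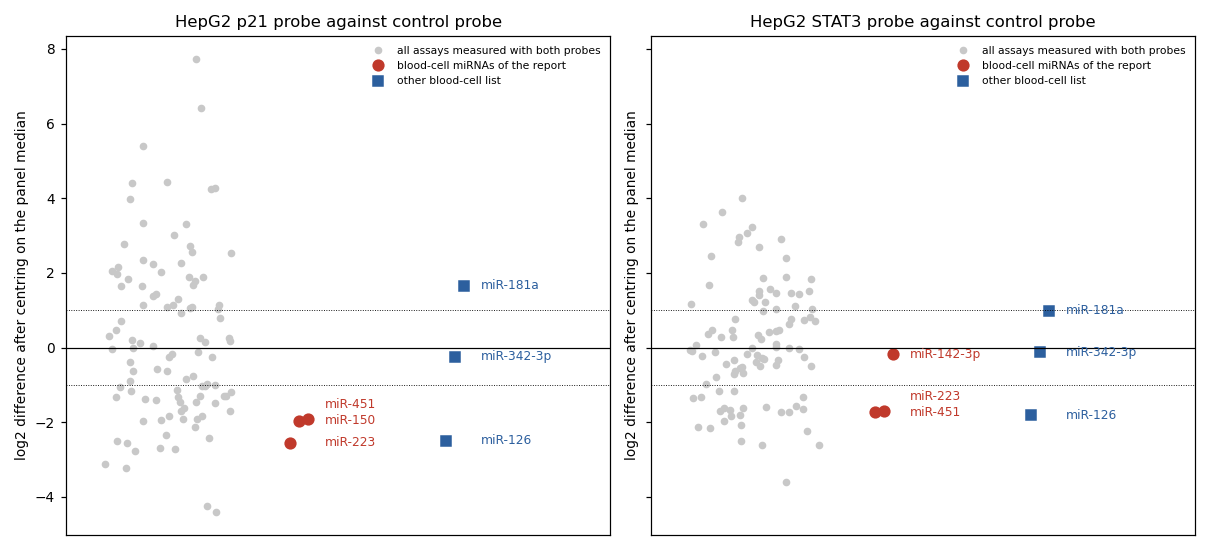
Log2 difference after centring on the panel median (y axis) for the p21 probe (left) and the STAT3 probe (right) against the shared HepG2 control; grey points are all assays measured with both probes (103 and 100), red circles the blood-cell miRNAs of this report and blue squares the other blood-cell list, with 2-fold marked by dotted lines. miR-223, miR-451 and miR-126 lie below the lower dotted line in both plots, and miR-181a is the highest blue square.

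Set directly against each other, the p21 and STAT3 purifications differed in miR-142-3p, while the differences in miR-223 and miR-451 depended on the reference. After centring, miR-223 was at -0.67 and miR-451 at -0.0097, both within the technical SD, and 0 of 2 were 2-fold lower, where 20% of 155 assays were, and 0 higher, where 29% were; without centring they were at -0.03 and 0.63. Both passed the technical SD on the reference assays, at -1.69 and -1.03, and on UniSp3, at 0.95 and 1.61. miR-142-3p was detected with STAT3 and not with p21, as were 26.6% of the panel 1 assays detected with STAT3 (37 of 139), and was at least 4.52-fold lower with p21 without centring and at least 7.05-fold lower after it (at least 2.29-fold on UniSp3, the lowest of the 6 references). miR-150 was detected with p21 and not with STAT3, as were 20.3% of those detected with p21 (26 of 128), and its 2 Cq values lay 0.51 cycles apart.

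The spacing between members within a purification does not depend on any centring. It varied less among miR-223, miR-150 and miR-451 than for miR-142-3p. miR-150 came later than miR-451 by 1.23 cycles with the p21 probe, 1.11 with STAT3 and 1.19 with the control probe in HepG2, a range of 0.12. miR-451 came later than miR-223 by 0.67, 1.33 and 1.31 cycles in the same order, a range of 0.66. miR-142-3p relative to miR-451 was at 4.15 cycles with p21, -1.25 with STAT3 and 0.29 with control, a range of 5.41. The spacings among miR-223, miR-150 and miR-451 thus had ranges of 0.12 to 0.66 cycles over the HepG2 probes. The technical SD describes a difference within a single assay, so a range of spacings between assays cannot be set against it. The range for miR-142-3p was wider, though its p21 value lies past the limit, where a Cq is less precise. The STAT3 value of miR-150 also lies past the limit.

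The 2 members detected in all 3 HepG2 purifications, miR-223 and miR-451, were compared with the other 76 panel 1 assays so detected, by the root mean square distance between Cq profiles over the 3 purifications after subtracting each assay's own mean. Closest to miR-223 were miR-126, an endothelial and blood-progenitor miRNA (distance 0.065 cycles), miR-26a (0.138) and miR-128, known from brain (0.287), against a median of 1.39 over all 76. Closest to miR-451 were miR-26b (0.114), miR-26a (0.186) and miR-346 (0.249), against a median of 1.28. miR-223 and miR-451 were each at place 5 for the other, at 0.308. With 3 points per profile this is a description only.

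miR-126 gave Cq 32.46 with the p21 probe, 32.59 with STAT3 and 31.26 with control, and its Cq minus that of miR-223 was -0.31, -0.16 and -0.26 cycles in that order. Its seed differs from that of miR-223, as the sequences show.
miR-126 (RefSeq miR-126-3p): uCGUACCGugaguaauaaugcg
miR-223 (RefSeq miR-223-3p): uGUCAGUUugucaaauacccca

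**Figure D3:**
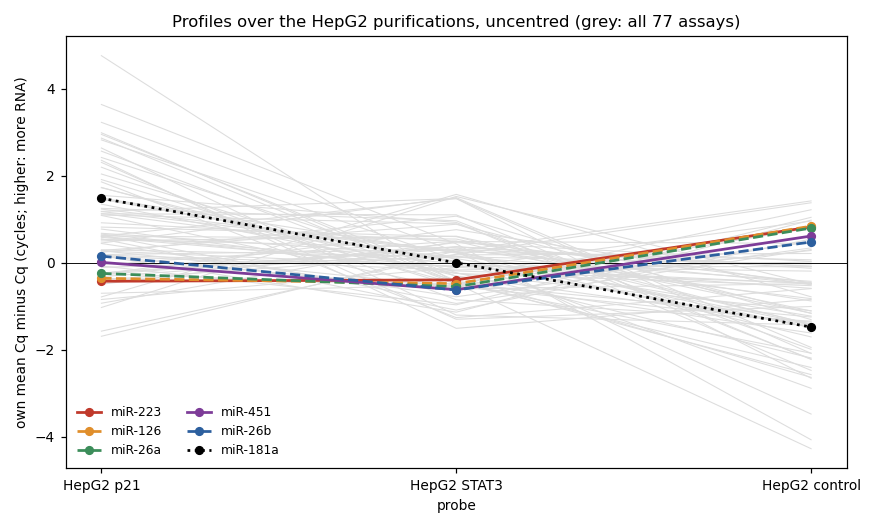
Each assay's own mean Cq minus its Cq (y axis, cycles, without centring; higher means more RNA) over the 3 HepG2 probes (x axis); grey lines are all 77 panel 1 assays detected in all 3. miR-223, miR-126, miR-26a, miR-451 and miR-26b are highest with the control probe, and miR-181a is highest with the p21 probe.

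Other miRNAs known from blood cells did not all share this pattern. In a second list of 9 (miR-126, miR-146b-5p, miR-181a to d, miR-342-3p, miR-486-3p and miR-486-5p), 4 were detected with the p21 probe, 3 with STAT3 and 3 with control in HepG2, and 0 in PC-3 with either probe, beside panel 1 shares (8 of the 9 are on panel 1) of 34.1%, 37.1% and 28.8% for the HepG2 probes, then 10.1% (p21) and 2.13% (control) for PC-3. miR-181a, abundant in thymocytes and B-cell precursors but also found outside blood, gave Cq 30.52 with p21, 31.9998 with STAT3 and 33.48 with control, and after centring stood at 1.66 for p21 and 0.99 for STAT3, which turned to -0.76 and -0.63 on the reference assays and, for STAT3, to -0.27 on U6, SNORD38B and SNORD49A. miR-342-3p, known from lymphocytes and monocytes, gave 32.95, 33.64 and 34.01 in that order, at -0.24 and -0.12 after centring, within the technical SD, and at 1.06 and 0.37 without it. On the reference assays miR-342-3p was at -2.66 and -1.74, on the small RNAs at -1.38 and -1.38, and on UniSp3 at 3.34 and 1.67. miR-126 stood at -2.50 and -1.81, which became 1.08 and -0.02 on UniSp3. For p21 the list thus had 1 of 3 higher, where 37.9% of all assays were (39 of 103), and 1 of 3 lower, where 36.9% were; for STAT3 it had 0 higher, where 29% of 100 assays were, and 1 of 3 lower, where 25% were.

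miR-146b-5p is the seed relative of miR-146a on the panels and is identical to it over the first 17 bases, as printed here.
miR-146a: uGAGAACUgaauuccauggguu
miR-146b-5p: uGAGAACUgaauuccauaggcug
miR-146b-5p gave Cq 35.27 with the STAT3 probe in HepG2 and no Cq in the other 4 purifications. The red-cell marker miR-486-5p was past the limit wherever it gave a Cq (39.35 with p21 and 35.67 with STAT3 in HepG2), so of the red-cell markers miR-451, miR-144 and miR-486-5p, miR-451 alone was detected.

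Markers of the labelled cell types were recovered unequally by the probes. Of 6 liver-enriched miRNAs, 0 were detected with the p21 probe, 4 with STAT3 and 0 with control in HepG2, where 34.1%, 37.1% and 28.8% of panel 1 were, and the defining liver miRNA, miR-122, gave no Cq in any purification. Of 6 epithelial miRNAs, the counts were 1, 4 and 0 in HepG2, and 1 with p21 and 0 with control in PC-3, where 10.1% and 2.13% of panel 1 were. With the STAT3 probe both lists thus lay above the panel's share, and with the other HepG2 probes below it. The HepG2 purifications all came from the same line, and the parts of capture and recovery in the differences between probes were not tested.

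Between the cell lines, the 4 members detected in HepG2 (miR-142-3p, miR-150, miR-223 and miR-451) were past the limit or without a Cq in PC-3, as were most panel 1 assays detected in HepG2, and the other 4 members were detected in neither line. With the control probe, miR-223 was at least 11.1-fold higher in HepG2 than in PC-3 without centring, miR-451 at least 4.47-fold, miR-142-3p at least 3.66-fold and miR-150 at least 1.97-fold. Centred on the 6 panel 1 assays measured in both lines, the bounds fell to 3.68-fold, 1.48-fold and 1.21-fold for the first 3, with none left for miR-150. Of the panel 1 assays detected with the control probe in HepG2, 94.4% (102 of 108) were not detected in PC-3, beside 4 of 4 members. With the p21 probe the bounds without centring were 4.68-fold for miR-223, 2.94-fold for miR-451 and 1.25-fold for miR-150, none was left after centring, and 75.8% of panel 1 assays detected in HepG2 (97 of 128) were missing from PC-3, beside 3 of 3 members. Within PC-3, no member was detected with either probe, so p21 against control has no value for any of the 8; 10 assays in all were measured with both probes there, 2 of them (20%) at least 2-fold higher and 1 (10%) lower. Of the panel 1 assays not detected with the PC-3 control probe, 8.72% were gained with p21 (32 of 367), against 0 of 8 members.

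**Figure D4:**
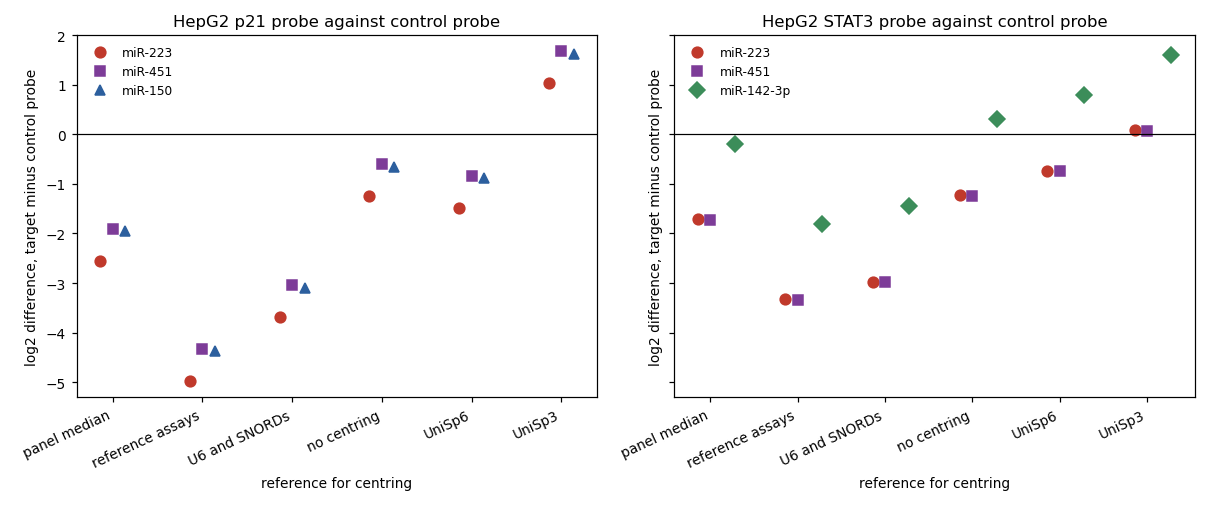
Log2 difference of the target probe minus the HepG2 control probe (y axis) for each member measured with both, under 6 references (x axis), for p21 (left) and STAT3 (right); points of different miRNAs are set slightly apart sideways. For p21 the points lie below 0 under all references but UniSp3, and for STAT3 miR-142-3p changes side between references.

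In the authors' deposited table of fold ratios, many entries for these miRNAs hold no measured signal. For PC-3, the authors' deposited table lists 0.710 for 8 of 8, the ratio that follows from the UniSp6 spike-in when both wells are set to Cq 35; 88.2% of the panel 1 entries there (328 of 372) have that value. For p21 in HepG2, the authors' deposited table lists 0.849 in the same way for miR-142-5p, miR-155, miR-144 and miR-146a, as for 60.8% of panel 1 entries (226), and gives miR-223 as 0.357, miR-150 as 0.540, miR-451 as 0.558 and miR-142-3p as 0.232, the last with the p21 well at the limit. For STAT3, the authors' deposited table lists 1.402 for miR-142-5p, miR-155 and miR-144, as for 44.4% of panel 1 entries (165), beside 1.735 for miR-142-3p, 0.626 for miR-150, 0.603 for miR-223 and 0.596 for miR-451. It lists miR-146a at 0.497 for STAT3, although the control well gave no Cq and the STAT3 well gave 36.50: that ratio follows when the control is set to 35 and the STAT3 well keeps its own Cq. In the authors' deposited table, the STAT3 well kept its own Cq in 62 of 161 panel 1 entries with a STAT3 Cq above 35, and the p21 well in 0 of 106.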

How the data were processed

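The authors deposited a table of unnormalised Cq values, 1 well per assay, and a table of fold ratios, per the file headers 2 to the power of minus ΔΔCt against a housekeeping gene that is not named. Per the labels' protocols, the probe was transfected, RNA was taken up on Streptavidin Dynabeads, isolated with TRIzol and measured on Exiqon panels; the sources used here name no instrument, threshold or probe sequence. Columns were matched to samples by description, and the panels are not replicates. A Cq of at most 35 counted as detected, 1 cycle as 1 log2 unit, and at least 1 log2 unit after centring on the panel median as 2-fold. Bounds set the undetected well to 35. Members, lists and the rule for named miRNAs (all members, star strands, seed relatives, the second blood-cell list, the 3 nearest profiles) were chosen with earlier results of these data known. Precision rests on assays present on both panels: the SD of a Cq was 0.634 cycles (22 pairs) and of a difference 0.692 (17), mostly at lower Cq than the members'. Repeat UniSp3 wells of the same plate gave a larger SD of a Cq, 1.005 cycles (pooled over 10 plates), which was not used as the technical SD. The calculation was tested on simulated data with known shifts, in which no assay was undetected. That test does not cover wells past the limit or centring on few assays. Alternatives changed the centre, the limit, the handling of undetected wells, or used the authors' deposited ratios. Python 3.11.15 with pandas 2.3.3 was used.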

Additional observations from a re-analysis of the deposited data

Results flagged for a closer look

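One signal lay outside the comparisons above. miR-223*, the minor strand of the miR-223 hairpin (RefSeq miR-223-5p, read on panel 2), gave Cq 34.07 with the STAT3 probe in HepG2 and no Cq with the p21 or control probe or in PC-3. It was 1 of 4 member star strands detected with STAT3. Of all 745 miRNA assays, 256 were detected with STAT3, 211 with p21 and 125 with control in HepG2, so more assays in general were detected with STAT3. The star strands of miR-155, miR-144 and miR-146a stayed past the limit in all 5 purifications.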

How the results depend on the processing

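The centre decided the size of the differences, and UniSp3 turned their sign. The median of the members measured with both probes was -1.96 for p21 and -1.71 for STAT3 against control in HepG2 and -0.34 for p21 against STAT3. For p21 against control it became -4.38 on the reference assays, -3.09 on U6, SNORD38B and SNORD49A, -0.65 without centring, -0.89 on UniSp6, -0.89 in the authors' deposited ratios and 1.62 on UniSp3. For STAT3 against control it became -3.32 on the reference assays, -2.97 on the 3 small RNAs, -0.73 on UniSp6, -0.73 in the authors' deposited ratios and 0.082 on UniSp3. The reference assays were themselves higher than with the control probe on panel 1, by 3.72 for p21 and 2.11 for STAT3. In the same order the panel medians shifted by 1.30 and 0.49 and the 3 small RNAs by 2.44 and 1.75. UniSp6 shifted by 0.24 and -0.49, and UniSp3 by -2.28 and -1.30. The centres thus differed in their shift between probes, and which of them was steady was not tested. For p21 against STAT3 the median became -1.36 on the reference assays and 1.28 on UniSp3. Its sign also turned at a Cq limit of 37 (0.084) and without centring (0.30). At 37 that median covered 3 members rather than 2, with miR-223 at -0.46 and miR-451 at 0.20. On UniSp3, single members turned to 1.62 (miR-150), 1.03 (miR-223) and 1.67 (miR-451) for p21 and 0.082 (miR-223) and 0.063 (miR-451) for STAT3. The cause was not tested. With a Cq limit of 37, or with undetected wells set to 35, each of the 3 medians moved by less than the technical SD. The members they covered changed, however. As reported they covered 3 (p21 against control), 3 (STAT3 against control) and 2 (p21 against STAT3). At 37 they covered 3, 4 and 3, and with undetected wells set to 35 they covered 4 each. With a limit of 32 none could be computed. Counts of detected members at a limit of 32 were 0 with p21, 0 with STAT3 and 1 with control in HepG2. Of the 375 panel 1 assays, 53, 45 and 27 were detected at that limit in the same order. At 37 the STAT3 count was 6 of 8, near the panel's 65.1% (244 of 375). With any Cq the STAT3 count was 7 of 8, beside 80.0% of the panel. With any Cq in PC-3 it was 3 for p21 and 2 for control, beside 34.4% and 15.5%. For p21 against control in PC-3 no member had a value, and the authors' deposited ratio is the limit value for all 8. No paired analysis was possible because each condition was purified 1 time. The Cq values of the detected members lie within 4 cycles of the limit, so absence means only that no signal was detectable by Cq 35.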
